A study of Danio rerio with 12 samples.

Results

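The aryl hydrocarbon receptor genes of zebrafish, their repressors and their Cyp1 targets were followed across a broflanilide exposure. Of 10 genes named for this set, 8 were found under their symbols in both deposited tables: cyp1a, cyp1c1, cyp1c2, cyp1d1, ahr1b, ahr2, ahrrb and tiparp. A ninth, ahrra, was found through its gene ID, ENSDARG00000099702, which the tables list under a clone name, CABZ01114318.1, and which a gene name table pairs with ahrra. The remaining gene, cyp1b1, was not analysed here. These 9 genes stand among 25004 that are in both tables.

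Broflanilide is a meta-diamide insecticide that acts on GABA-gated chloride channels of insects. Poly(A) RNA of zebrafish larvae was sequenced after exposure to the solvent DMSO alone (0 µg/L, control, n = 5), to 1 µg/L broflanilide (low dose, n = 4) or to 10 µg/L (high dose, n = 3). No transgene or mutation is named for any group, and the labels name no strain, age or length of exposure. Nothing in the labels tells whether each library had its own clutch or pool of larvae, so the p-values reflect the spread of these samples alone, and that spread may be technical.

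The aryl hydrocarbon receptor is a transcription factor held in the cytosol by Hsp90 and its partners until a ligand binds. It then enters the nucleus, pairs with Arnt, and switches on Cyp1 monooxygenases together with brakes on its own activity, among them the Ahr repressors and the ADP-ribosyltransferase Tiparp. Zebrafish carry several receptor genes, of which ahr2 mediates most of the known response to dioxins. In fish, cyp1a is the usual marker of exposure to planar aromatic pollutants and can be induced in gut, liver and vessel lining.

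Total counts per library ran from 10721597 to 16380300, and within-group pairs of libraries correlated at 0.840 to 0.951 over 18786 genes (log2 CPM). The first principal component (27.6% of the variance) put control replicate 3 and low dose replicate 4 at its ends, and the second (15.4%) put control replicate 2 apart. Of 8 defining larval tissue genes, 7 were above 0 in every library; ins, the insulin gene of the islet, was at 0 in some and reached 0.889 CPM at most. Whole larvae were measured, so fewer cells of a type and less RNA per cell cannot be told apart.

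Neither dose gave a change in these genes that passed the test. With edgeR's quasi-likelihood test and Benjamini-Hochberg adjustment over all genes, 0 of the 8 members that passed the filter on low counts reached an adjusted p under 0.05 at either dose, where 0% of 18811 low-dose genes and 0% of 18618 high-dose genes did so. At an unadjusted p under 0.05 the members gave 0 calls at both doses, against 3.89% of all low-dose genes and 2.00% of all high-dose genes. DESeq2, run as an alternative, also called 0 members, but over all genes it called 1 low-dose gene and 4 high-dose genes. At the low dose 6 of the 8 members had a log2 fold change above 0, as had 50.2% of all genes, and 5 of 8 did at the high dose, as had 49.5% of all genes. The median log2 fold change of the 8 members was 0.20 at the low dose, where that of all genes was 0.0013, and 0.16 at the high dose, where that of all genes was -0.0032. The low-dose median was 0.084 without low dose replicate 4, and the high-dose median was -0.059 without high dose replicate 2 and 0.019 without control replicate 5. In both comparisons exposed and control libraries overlapped for each of the 8 members, as they did for most genes. Of all genes 0.707% lay wholly above and 0.835% wholly below the controls at the low dose, and 1.40% and 1.08% at the high dose. Both doses share the same controls.

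The target gene cyp1a (ENSDARG00000098315, chromosome 18, 5588068 to 5598958, minus strand, GRCz11), whose product oxidises planar aromatic compounds, had the largest low-dose log2 fold change of the set. Levels are in CPM, reads of a gene relative to all reads of its library after TMM scaling over the 12 libraries, in replicate order. Its level was 5.53, 3.20, 16.9, 7.47 and 7.21 CPM in controls, 24.5, 9.26, 9.46 and 11.03 CPM at the low dose, and 5.62, 15.8 and 8.97 CPM at the high dose. All 4 low-dose libraries lay above the control median, but 1 of them, replicate 1, lay above the highest control, and all high-dose libraries lay within the control range. The mean was 13.6 ± 7.33 CPM at the low dose (SD, n = 4) against 8.06 ± 5.22 CPM in controls (SD, n = 5), and the log2 fold change was 0.76 (SE 0.45, edgeR adjusted p = 0.924). That change was larger in size than those of 91.4% of genes tested. In the high-dose group the mean was 10.1 ± 5.20 CPM (SD, n = 3), and the log2 fold change was 0.34 (SE 0.49, edgeR adjusted p = 1). Leaving out low dose replicate 1 gave 0.31 at the low dose, and leaving out control replicate 3 gave 1.22. For the high dose, the value was -0.14 without high dose replicate 2, 0.13 without control replicate 2 and 0.79 without control replicate 3.

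**Figure D1:**
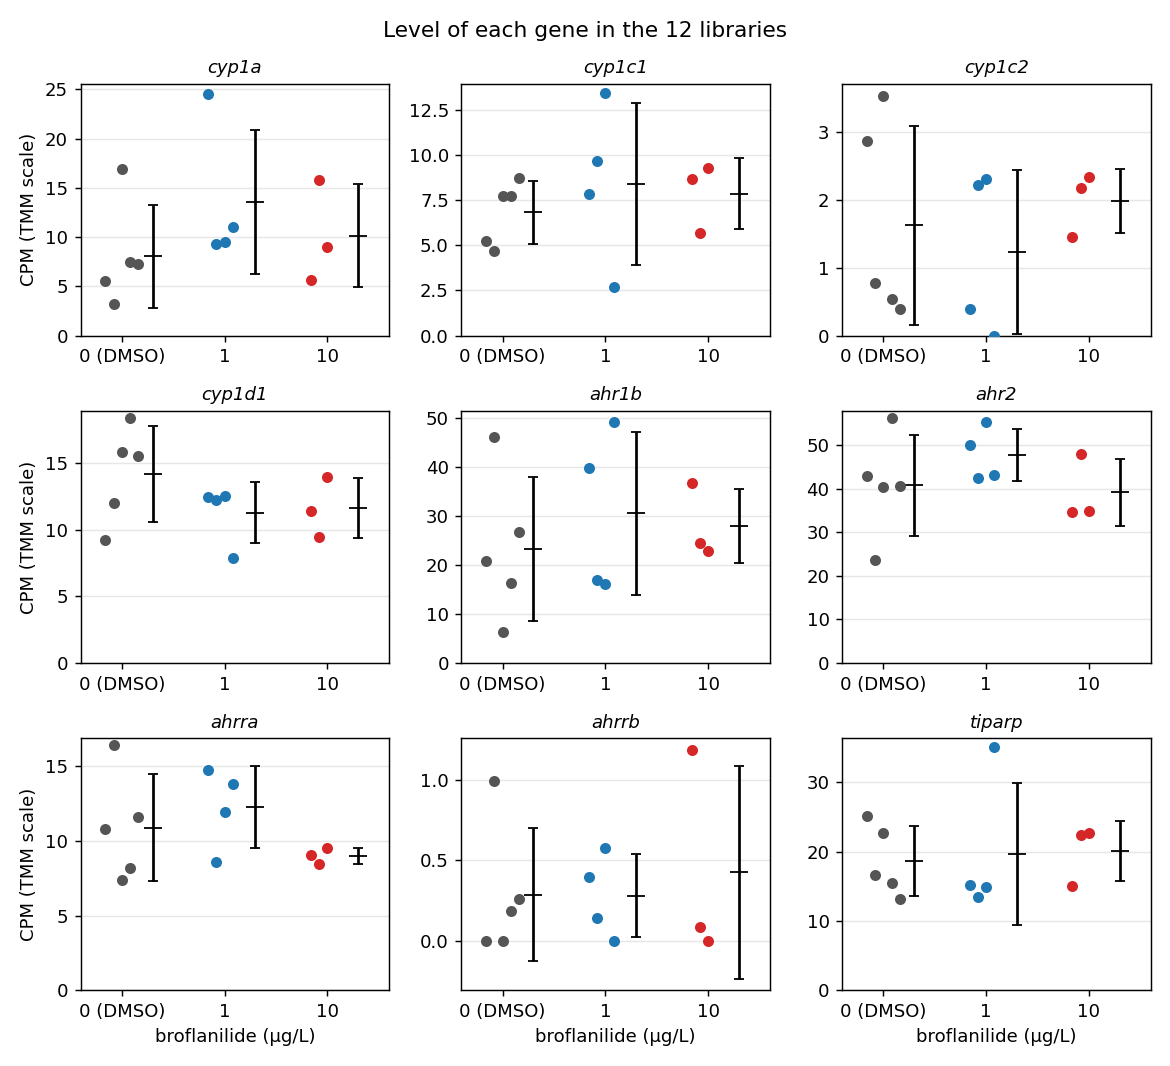
Level of each of the 9 genes in CPM (TMM scale; axes start at 0, and below it for ahrrb, whose SD exceeds its mean) in every library, by broflanilide concentration in µg/L, with 1 point per library and the group mean ± SD in black beside the points. For cyp1a, 1 low-dose library stands at 24.5 CPM and 1 control at 16.9 CPM, and the groups overlap in every panel.

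The other Cyp1 enzymes did not form a common picture. Cyp1c1 and Cyp1c2 are fish enzymes that respond to receptor ligands, and in RefSeq's GRCz12tu assembly their genes lie side by side. In the build of the deposited tables, cyp1c1 sits on the unplaced scaffold KN150425.1 (ENSDARG00000101195, 103570 to 106640, plus strand) and cyp1c2 on chromosome 17 (ENSDARG00000101789, 996509 to 998695, plus strand). The level of cyp1c1 was 5.23, 4.69, 7.71, 7.74 and 8.71 CPM in controls, 7.82, 9.68, 13.4 and 2.67 CPM at the low dose, and 8.65, 5.65 and 9.29 CPM at the high dose. Low-dose libraries thus held both the highest and the lowest value of this gene. Its log2 fold change was 0.30 (SE 0.40, edgeR adjusted p = 0.935) at the low dose, -0.02 without low dose replicate 3 and 0.60 without low dose replicate 4, and 0.21 (SE 0.31, adjusted p = 1) at the high dose.

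The neighbour cyp1c2 was scarce and uneven. It had 39, 11, 34, 6 and 6 counts in controls, 5, 32, 24 and 0 counts at the low dose, and 22, 25 and 29 counts at the high dose. Low and high values were mixed within controls and within the low dose, and low dose replicate 4, the deepest library, had no read; a count of 0 there allows up to 0.167 CPM (3 counts, counting error only). Its log2 fold change was -0.40 (SE 1.02, edgeR adjusted p = 0.963) at the low dose and 0.30 (SE 0.74, adjusted p = 1) at the high dose. Leaving out 1 library at a time moved the low-dose value between -0.88 (low dose replicate 3) and 0.088 (control replicate 3), and the high-dose one between 0.037 (control replicate 5) and 0.78 (control replicate 3). No source used here states how the authors assigned reads shared between close copies, which leaves the split between cyp1c1 and cyp1c2 uncertain.

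The enzyme Cyp1d1 is known from zebrafish as a family member that receptor ligands do not readily induce. Its gene (ENSDARG00000035569, chromosome 5, 25603761 to 25621386, minus strand) overlaps si:dkey-96l17.6 on the opposite strand, which averaged 30.8 counts, and whether counting used strand is not stated. The level of cyp1d1 was 9.21, 12.01, 15.8, 18.4 and 15.5 CPM in controls, 12.4, 12.3, 12.5 and 7.86 CPM at the low dose, and 11.4, 9.48 and 13.975 CPM at the high dose. All 7 exposed libraries lay below the control median, and 6 of them lay inside the control range. The log2 fold change was -0.33 (SE 0.26, edgeR adjusted p = 0.924) at the low dose and -0.29 (SE 0.27, adjusted p = 1) at the high dose.

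Of the receptors, ahr2 varied less between libraries than ahr1b. The genes ahr1b (ENSDARG00000023537, 12979213 to 13042992) and ahr2 (ENSDARG00000021833, 13046270 to 13165186) follow each other on the minus strand of chromosome 22, with 3277 bases between them; in GRCz12tu 1 gene starts between them. The level of ahr2 was 42.8, 23.6, 40.4, 56.2 and 40.6 CPM in controls, 50.02, 42.5, 55.2 and 43.2 CPM at the low dose, and 34.6, 47.9 and 34.8 CPM at the high dose. All 4 low-dose libraries lay above the control median and within the control range. The log2 fold change of ahr2 was 0.23 (SE 0.22, edgeR adjusted p = 0.924) at the low dose, 0.08 to 0.37 with 1 library left out at a time, and -0.06 (SE 0.25, adjusted p = 1) at the high dose.

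The paralog ahr1b, whose product binds ligand like Ahr2, was at 20.9, 46.0, 6.36, 16.2 and 26.65 CPM in controls. It was at 39.8, 16.9, 16.1 and 49.2 CPM at the low dose and at 36.7, 24.3 and 22.9 CPM at the high dose. Its highest control, replicate 2, held 7.23 times the CPM of its lowest, replicate 3. The coefficient of variation in controls was 63.5%, above 86.9% of genes, against 28.4% for ahr2 and a median of 32.7% over 18786 genes. The log2 fold change of ahr1b was 0.39 (SE 0.48, edgeR adjusted p = 0.929) at the low dose and 0.26 (SE 0.45, adjusted p = 1) at the high dose. With 1 library left out at a time the low-dose value ran from 0.06 without low dose replicate 4 to 0.80 without control replicate 2. At the high dose it lay between 0.02 (high dose replicate 1 left out) and 0.67 (control replicate 2 left out).

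Per length, the balance of these receptors turned over between libraries. The FPKM of ahr1b divided by that of ahr2 was 0.907, 3.63, 0.293, 0.537 and 1.22 in controls, 1.48, 0.742, 0.544 and 2.12 at the low dose, and 1.97, 0.947 and 1.22 at the high dose. In 6 of the 12 libraries ahr2 was the lower of the pair. The control libraries alone spanned the whole range of this ratio.

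The repressors bind Arnt and the receptor's DNA elements without activating them. The ahrra row (chromosome 24, 42094833 to 42101600, plus strand) was at 10.8, 16.4, 7.40, 8.195 and 11.6 CPM in controls, 14.8, 8.56, 11.97 and 13.8 CPM at the low dose, and 9.05, 8.43 and 9.53 CPM at the high dose. The high-dose libraries lay close together, below the control median and inside the control range. The log2 fold change was 0.17 (SE 0.28, edgeR adjusted p = 0.949) at the low dose and -0.28 (SE 0.29, adjusted p = 1) at the high dose. Leaving out 1 library at a time gave 0.063 (without control replicate 3) to 0.36 (without control replicate 2) at the low dose, and -0.39 and -0.083 at the high dose without the same libraries.

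Its paralog ahrrb (ENSDARG00000052618, chromosome 2, 50133594 to 50198328, minus strand) was at the edge of detection and was not tested. It had 0, 14, 0, 2 and 4 counts in controls, 5, 2, 6 and 0 counts at the low dose, and 18, 1 and 0 counts at the high dose. Libraries without a read occurred in all 3 groups, and the highest level was 1.19 CPM, in high dose replicate 1. A count of 0 allows up to 0.313 CPM in the library with the smallest scaled depth, control replicate 3.

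The feedback gene tiparp (ENSDARG00000061841, chromosome 18, 34599315 to 34642086, plus strand) was at 25.2, 16.6, 22.6, 15.5 and 13.2 CPM in controls, 15.2, 13.4, 14.9 and 35.0 CPM at the low dose, and 15.1, 22.3 and 22.7 CPM at the high dose. Low dose replicate 4 was above every other library, and the other 3 low-dose libraries lay below the control median. The log2 fold change was 0.08 (SE 0.31, edgeR adjusted p = 0.975) at the low dose and 0.11 (SE 0.26, adjusted p = 1) at the high dose. With array quality weights in limma it was -0.15 at the low dose, and leaving out low dose replicate 4 gave -0.36.

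**Figure D2:**
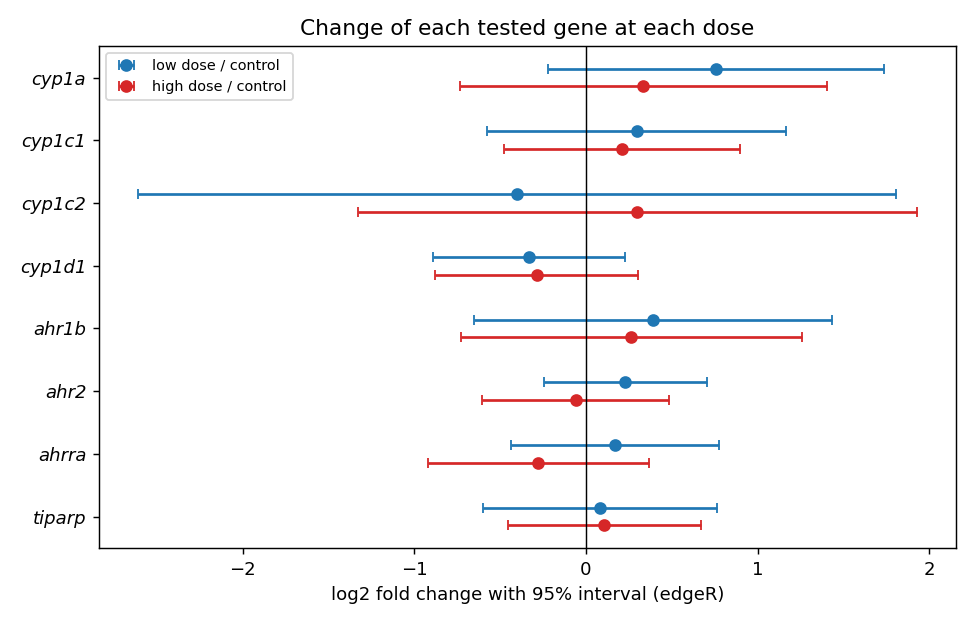
Log2 fold change of each of the 8 tested genes against the shared controls at the low dose (blue, above) and at the high dose (red, below), as points with 95% intervals from edgeR. Each interval crosses 0, and those of cyp1c2, the scarcest gene tested, are the widest.

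The intervals give the fold changes that these libraries allow, for 1 gene at a time and without adjustment over genes. They are not limits of detection. For cyp1a the 95% interval reached from 0.858 to 3.33 times the control level at the low dose and from 0.603 to 2.64 times at the high dose. For cyp1c1 the upper bounds were 2.24 and 1.86 times the control level, for tiparp 1.70 and 1.59 times, and for the ahrra row 1.71 and 1.29 times. For ahr2 the interval ran from 0.843 to 1.63 times at the low dose and from 0.658 to 1.40 times at the high dose. For cyp1c2 it ran from 0.164 to 3.50 times at the low dose and from 0.399 to 3.80 times at the high dose. Over all genes, the median distance between estimate and interval bound was 0.71 (log2) at the low and 0.73 at the high dose.

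The authors' deposited table lists cyp1a with log2 fold changes of 0.78 (low dose, adjusted p = 0.983) and 0.32 (high dose, adjusted p = 1.00). In the authors' deposited table the other tested members lay between -0.40 (cyp1c2) and 0.42 (ahr1b) at the low dose and between -0.30 (cyp1d1) and 0.28 (cyp1c2) at the high dose. For ahrrb the authors' deposited table gives -0.07 at the low and 0.55 at the high dose. Over all genes, the authors' adjusted p was under 0.05 for 1 low-dose gene and 4 high-dose genes, and no member was among them.

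The doses were also set against each other in 1 fit of all 12 libraries, which tests the difference between them directly. Here 0 of 8 members passed (0% of 18786 genes did so), and 0 had an unadjusted p under 0.05, against 4.48% of all genes. Of the 8 members 3 were above 0, as were 48.9% of all genes. The member with the smallest p was the ahrra row, at 9.01 ± 0.551 CPM at the high dose (SD, n = 3) against 12.3 ± 2.73 CPM at the low dose (SD, n = 4), and the log2 fold change was -0.45 (SE 0.30, edgeR adjusted p = 0.953). For cyp1a the log2 fold change of high against low dose was -0.42 (95% interval -1.53 to 0.68), and it was 0.03 without low dose replicate 1 and -0.64 with the summed level of gut markers as a covariate. For cyp1c2 it was 0.70 (-1.49 to 2.89), with 0.27 when low dose replicate 4 was left out and 1.18 when low dose replicate 2 or 3 was. In each member high-dose and low-dose libraries overlapped, as they did in most genes. Of all genes 3.84% were higher and 2.87% lower in every high-dose library than in every low-dose library.

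Levels can be compared between genes only per length, for which the authors' FPKM were used. The listed lengths were 1329 bases for the ahrra row, 2842 for tiparp, 4032 for ahr1b and 7511 for ahr2. The order below depends on these lengths, and whether they match the transcripts present was not tested. Before division by length the control mean was 10.9 CPM for the ahrra row and 40.7 CPM for ahr2. Over all 12 libraries the mean was 8.02 ± 2.18 FPKM for the ahrra row, 6.65 ± 2.29 for tiparp, 6.52 ± 3.26 for ahr1b and 5.56 ± 1.21 for ahr2 (SD, n = 12). Of the enzymes, cyp1a averaged 3.90 ± 2.25 FPKM, cyp1c1 2.42 ± 0.883, cyp1d1 2.04 ± 0.484 and cyp1c2 0.707 ± 0.510, and ahrrb was lowest at 0.175 ± 0.221 FPKM (SD, n = 12). The ahrra row was above tiparp in 7 of 12 libraries, tiparp above ahr1b in 8, and ahr1b above ahr2 in 6, so these neighbours in the order were not separated. Likewise cyp1a was above cyp1c1 in 8 libraries and cyp1c1 above cyp1d1 in 8. The step below ahr2 held in 10 libraries, and cyp1d1 was above cyp1c2 in 12 of 12.

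Within the summed FPKM of the 4 measured Cyp1 genes, the share of cyp1a moved most. It was 31.7%, 24.0%, 48.8%, 32.9% and 33.0% in controls, 66.1%, 36.3%, 32.5% and 66.0% at the low dose, and 28.5%, 57.9% and 34.8% at the high dose. The highest shares were those of low dose replicates 1 and 4, and each exposed group also had libraries at control-like shares. The level of cyp1a was 9.28 FPKM in low dose replicate 1 but 4.22 FPKM in low dose replicate 4, below 6.25 FPKM in control replicate 3. In low dose replicate 4 cyp1c1 (0.871 FPKM), cyp1c2 (0 FPKM) and cyp1d1 (1.31 FPKM) were each at their lowest of the 12 libraries.

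**Figure D3:**
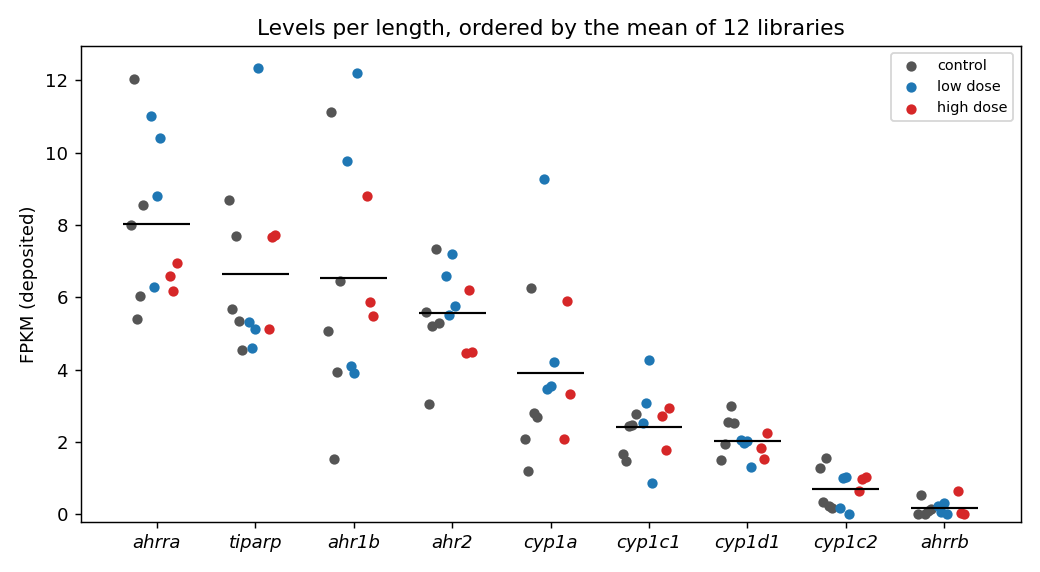
Deposited FPKM of each gene in the 12 libraries, 1 point per library, coloured by group (control grey, low dose blue, high dose red), with the mean of 12 libraries as a black line and genes ordered by it. The receptors, tiparp and the ahrra row overlap at means of 5.56 to 8.02 FPKM, and the enzymes lie lower, at means of 0.707 to 3.90 FPKM.

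Whether the genes varied together between libraries was asked over all 28 pairs of the 8 tested members, with Pearson's r of log2 CPM over 12 libraries and permutation tests (100000 resamples, two-sided). After Benjamini-Hochberg adjustment 0 pairs passed by Pearson's r and 0 by Spearman's rho, with 7 and 3 pairs at an unadjusted p under 0.05. The share of pairs of other genes at that level was not computed, so whether these counts are high is not known. The pairwise r ran from -0.73 to 0.74 with a median of -0.04, with 12 pairs above 0 and 16 below. The enzyme cyp1a had an r of 0.11 with cyp1c1, -0.04 with cyp1c2, 0.0043 with cyp1d1, 0.17 with tiparp, -0.27 with ahr1b and -0.21 with the ahrra row. With group means removed, its r was -0.48 with ahr1b and -0.40 with the ahrra row.

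The strongest pair was ahr1b with the ahrra row, at r = 0.74 (permutation p = 0.00516, adjusted p = 0.0906) and rho = 0.68 (permutation p = 0.0191, adjusted p = 0.178). Without control replicate 3 and low dose replicate 4 the r was 0.63, and with group means removed it was 0.86 (exact permutation p = 0.00590, adjusted p = 0.0834). Both genes were highest in control replicate 2 and low dose replicates 1 and 4 and lowest in control replicate 3. Leaving out 1 library at a time gave an r of 0.68 to 0.82. Among these runs the pair passed only without high dose replicate 1, at r = 0.82 (permutation adjusted p = 0.0356).

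The pair cyp1c1 and tiparp ran in opposite directions, at r = -0.73 (permutation p = 0.00647, adjusted p = 0.0906) and rho = -0.71 (permutation p = 0.0126, adjusted p = 0.177). Without low dose replicates 3 and 4 its r was -0.45, so the relation rested in part on those libraries. The receptor ahr2 and cyp1a had an r of 0.61 (permutation p = 0.0368, adjusted p = 0.177) and a rho of 0.48 (permutation p = 0.121, adjusted p = 0.488), and the r was 0.18 without control replicate 2 and low dose replicate 1, so that relation rested on these libraries.

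**Figure D4:**
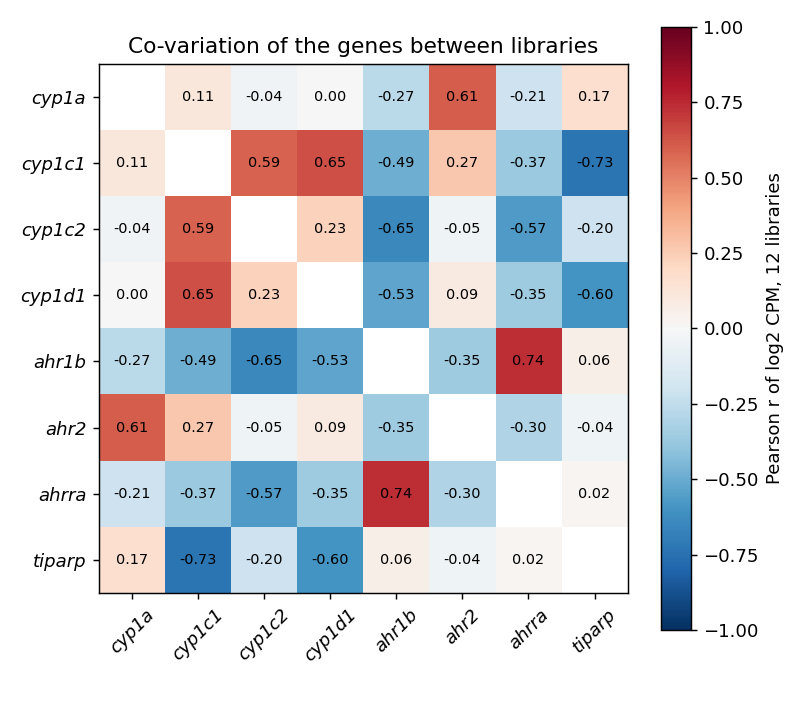
Pearson r of log2 CPM over the 12 libraries for each pair of the 8 tested genes, from blue (-1) to red (1), with the value in each cell. The highest value is 0.74 for ahr1b with ahrra and the lowest -0.73 for cyp1c1 with tiparp, and the row of cyp1a runs from -0.27 with ahr1b to 0.61 with ahr2.

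Of the 3 tissue marker sums set beside cyp1a, that of the gut passed the test by Pearson's r. The summed level of 6 gut marker genes (fabp2, apoa4b.1, vil1, cdx1b, anpepb and slc15a1b, each above 0 in every library) ranged from 135 to 362 CPM at the low dose and from 155 to 328 CPM at the high dose, against 116 to 435 CPM in controls. Over 12 libraries cyp1a followed this sum with r = 0.81 (permutation p = 0.00165, adjusted p = 0.0396 over 24 relations of members with marker lists) and rho = 0.74 (permutation p = 0.00792, adjusted p = 0.190). The r was 0.67 without control replicates 2 and 3, and 0.93 with group means removed (exact permutation p = 0.000405, adjusted p = 0.00972). With low dose replicate 4 left out besides control replicates 2 and 3, the r was 0.67 and did not pass (permutation adjusted p = 0.872). This relation was looked for after the levels had been seen, and leaving out 1 library at a time gave an r of 0.72 to 0.89, with an adjusted p above 0.05 for 9 of the 12 libraries. The gut sum was lowest in control replicate 2 and highest in control replicate 3, both set apart by the principal components. How many genes outside the members follow the gut sum as closely was not tested.

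The liver sum did not pass, but whether its r with cyp1a differed from that of the gut sum was not tested. Both sums were lowest in control replicate 2, at 116 CPM for gut and 262 CPM for liver. The sum of 8 liver markers, all above 0 in every library, ranged from 446 to 1177 CPM at the low dose and from 675 to 2349 CPM at the high dose, against 262 to 1919 CPM in controls. Its r with cyp1a was 0.69 (permutation p = 0.0128, adjusted p = 0.153) and its rho 0.64 (permutation p = 0.0297, adjusted p = 0.356), with an r of 0.67 without control replicate 2 and high dose replicate 3. With group means removed the liver r was 0.84 (exact permutation p = 0.00787, adjusted p = 0.0944). The liver sum had an r of -0.62 with the ahrra row (permutation p = 0.0329, adjusted p = 0.263) and of -0.54 with ahr1b (permutation p = 0.0686, adjusted p = 0.412). With group means removed these were -0.58 and -0.76. The part of tissue content in the pair of ahr1b and the ahrra row was not tested. In the high-dose fit 8 of the 8 liver markers had values above 0 (median log2 fold change 0.94), as had 49.5% of all genes. Of these 8, 2 had an unadjusted p under 0.05, against 2.00% of all genes, and 0 passed the edgeR threshold. Between the doses 8 of 8 liver markers were higher in value at the high dose, as were 48.9% of all genes. Their median log2 fold change was 1.06, where that of all genes was -0.011. Of these markers 3 had an unadjusted edgeR p under 0.05, against 4.48% of all genes, and 0 passed the threshold. In both comparisons the 8 markers read the same tissue in the same high-dose libraries, so they are not separate observations. Their sum was 675 CPM in high dose replicate 1, 2011 CPM in replicate 2 and 2349 CPM in replicate 3. The sum of 6 vessel markers ranged from 66.9 to 92.2 CPM at the low dose and from 77.5 to 84.8 CPM at the high dose, against 66.5 to 84.6 CPM in controls, and its r with cyp1a was -0.07 (permutation p = 0.826, adjusted p = 0.901), or -0.23 with group means removed.

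With the gut marker sum as a covariate, a fit added after the data had been seen, the low-dose log2 fold change of cyp1a was 0.88 (95% interval 0.36 to 1.39). Its unadjusted edgeR p was 0.00307, ranked 15 of 18811 genes, of which 828 were under 0.05. Its edgeR adjusted p was 0.869, so it did not pass. Without the covariate the unadjusted edgeR p was 0.118, with an SE of 0.45 against 0.235 in this fit. Of the marker sums, that of the gut had the highest r with cyp1a, so this fit takes out spread of cyp1a by construction. Its p, rank and interval are therefore not separate support for a change. In the same kind of fit the high-dose value was 0.23 (95% interval -0.35 to 0.80, edgeR adjusted p = 0.946). High against low dose it was -0.64 (95% interval -1.24 to -0.05, unadjusted p = 0.0354, edgeR adjusted p = 0.863), which did not pass either. There 1069 of 18786 genes had an unadjusted p under 0.05. For ahr1b at the high dose the fit with the gut covariate gave 0.70 (95% interval 0.19 to 1.21, unadjusted p = 0.0112, edgeR adjusted p = 0.855), against 0.26 without the covariate. It ranked 245 of 18618 genes, of which 1048 had an unadjusted p under 0.05. The part of gut or liver content in the cyp1a values was not tested beyond these fits.

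**Figure D5:**
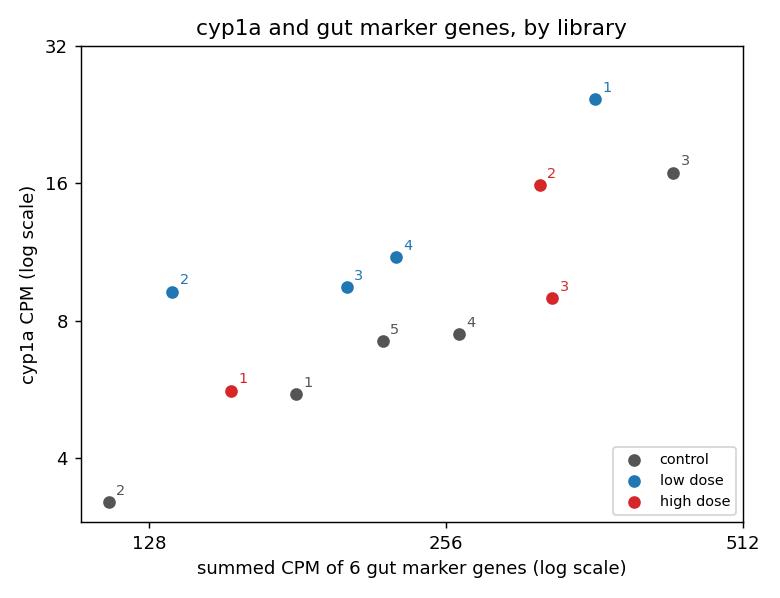
Level of cyp1a in CPM against the summed CPM of 6 gut marker genes, both on log2-spaced axes, with 1 point per library coloured by group and labelled with its replicate number. Libraries with more gut marker RNA tended to have more cyp1a, at r = 0.81 over 12 libraries and rho = 0.74 (permutation adjusted p = 0.190 for rho). The level of cyp1a ran from 3.20 CPM in control replicate 2 to 24.5 CPM in low dose replicate 1. The highest gut sum was that of control replicate 3.

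The genes most like each member were taken as those with the highest Pearson r of log2 CPM over the 12 libraries, among 11801 genes (11802 for the ahrra row) with a symbol and a mean count of at least 50. The search covered the members set for it that reach this count. For cyp1a these were klf5l (r = 0.90), a Krüppel-like factor gene, the trypsin-like protease gene prss59.1 (0.89) and the perforin-like gene mpeg1.2 (0.88). For cyp1c1 they were hoxa3a (0.91), the heme-regulated kinase gene eif2ak1 (0.90) and the retinoic acid binding protein gene crabp2a (0.90). For ahr2 they were ctsa (0.95) and scpep1 (0.95), both for serine carboxypeptidases, and the proteasome maturation gene pomp (0.95). For the ahrra row they were nipblb (0.91), which encodes a cohesin loader, the splicing factor gene sf1 (0.91) and rnf11b (0.91), and for tiparp osbp2 (0.86), the retinoid isomerase gene rpe65a (0.84) and ccar1 (0.83). These are descriptions over libraries that share depth and tissue content, and the member itself was the only gene left out of each search. How high the largest of so many r values would be without any relation was not computed. The genes named for cyp1a and ahr2 were each lowest in control replicate 2. Those for cyp1c1 were each lowest, and those for tiparp each highest, in low dose replicate 4. Those for the ahrra row shared no such library.

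Genes that hold the receptor in the cytosol or pair with it, listed with the further receptor gene ahr1a, did not pass either. Of the 7 listed (ahr1a, arnt, arnt2, aip, ptges3a, ptges3b and hsp90ab1), all but ahr1a passed the low-count filter. Of these 6, 0 passed the test at either dose, where 0% of all genes did. Their median log2 fold change was 0.02 at the low and 0.13 at the high dose, where those of all genes were 0.0013 and -0.0032. At the high dose ptges3a, a p23 co-chaperone gene, averaged 83.4 ± 15.3 CPM (SD, n = 3) against 62.3 ± 11.2 CPM in controls (SD, n = 5), a log2 fold change of 0.42 (edgeR adjusted p = 1). The chaperone gene hsp90ab1 was at 0.17 and the partner gene arnt at 0.48 there. Of Hsp90 genes the list held hsp90ab1 alone. Outside the list, hsp90aa1.2 had the smallest p of all genes in the high-dose fit, at a log2 fold change of 1.09 (edgeR adjusted p = 0.2345). It did not pass, and its part in receptor holding was not tested. At the low dose ptges3b averaged 23.2 ± 7.31 CPM (SD, n = 4) against 30.7 ± 2.83 CPM in controls (SD, n = 5), a log2 fold change of -0.40 (edgeR adjusted p = 0.924), the receptor-binding immunophilin gene aip was at -0.19 and arnt at 0.85. The arnt level was 0.279 to 11.98 CPM at the low dose against 0.104 to 4.20 CPM in controls, and its value was -0.62 without low dose replicate 4.

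Of 11 other genes known to respond to receptor ligands in fish or mammals, 9 were tested and 0 passed at either dose; 3 were above 0 and 6 below at each dose. Their median log2 fold change was -0.12 at the low and -0.10 at the high dose. The quinone reductase gene nqo1 was at -0.08 at the low and 0.06 at the high dose. By smallest p the low-dose genes were the cartilage factor gene sox9b (-0.13), the antioxidant regulator gene nfe2l2a (0.17) and the forkhead gene foxq1b (0.35). High-dose genes by this rule were the aldehyde dehydrogenase gene aldh3a1 (0.33), foxq1b (-0.58) and nfe2l2b (-0.47). The foxq1b level was 2.40 to 15.0 CPM at the low dose and 4.29 to 8.52 CPM at the high dose, against 2.27 to 14.1 CPM in controls.

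Electron donors and heme genes, which P450 enzymes need, gave 0 calls among 7 tested at either dose, where 0% of all genes were called. Their medians were 0.07 at the low and -0.09 at the high dose, where those of all genes were 0.0013 and -0.0032. The first enzyme of heme synthesis, alas1, was at 0.35, the P450 reductase gene porb at 0.28 and cytochrome b5 gene cyb5a at -0.27 at the low dose. At the high dose fech, the last enzyme of heme synthesis, was at -0.46, the reductase gene pora at -0.14 and cyb5r3 at 0.17.

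The kynurenine route breaks tryptophan down to products that include receptor ligands. Of 7 genes 6 were tested and 0 passed, where 0% of all genes did. The medians were -0.01 at the low and 0.23 at the high dose, where those of all genes were 0.0013 and -0.0032. By smallest p, kynu was at 0.33, kmo at -0.18 and haao at 0.29 at the low dose. At the high dose tdo2a, a tryptophan dioxygenase gene, was at 0.56, kynu at 0.60 and kmo at 0.23. With 1 library left out these were as low as 0.20 for tdo2a (without high dose replicate 3), and 0.30 for kynu and 0.0094 for kmo (both without high dose replicate 2), and as high as 0.82, 0.86 and 0.47. The tdo2a level was 0.0557 to 21.0 CPM at the low dose and 11.4 to 27.1 CPM at the high dose, against 4.69 to 17.4 CPM in controls.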

How the data were processed

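Larval RNA was extracted with TRIzol and made into directional poly(A) libraries, per the labels' protocols. Per the submitters' processing notes, the build was GRCz11 and the tools include featureCounts, HISAT2, fastp and DESeq2, without versions or roles. The authors deposited raw counts per Ensembl gene, per the file headers, with 1 table per dose and identical control counts. The authors' FPKM, identical for controls in both tables, are per kilobase of listed gene length with a library scaling other than the total count. The authors' log2 fold changes and p-values with adjusted p-values were copied only where named. The 17 normalized and 4 mean columns were not used.

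Genes averaging at least 10 counts were tested by quasi-likelihood in edgeR 4.0.16 under R 4.3.3 (TMM scaling, prior count 0.125), adjusted over all genes at 0.05 and checked on simulated data. Each dose was fitted with its controls, and the doses against each other on all 12 libraries. Intervals are at 95%, and counting floors cover counting error only. Correlations used log2 CPM with a prior count of 1 in Python 3.11.15.

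The settings varied were the prior count (0.5, 5), the count filter (none, or a mean of 50), the tool (DESeq2 1.42.0 or its size factors alone; limma 3.58.1 with array quality weights), a replicate block, 1 fit of all libraries, each library left out, and the libraries that stand apart left out. The gut covariate was added later. All members are named, with the 3 genes of smallest p per pathway list and dose, and the 3 genes most alike for cyp1a, cyp1c1, ahr2, ahrra and tiparp, each with a mean count of at least 50. The members and lists were chosen with earlier results of these data known. The listed genes wfikkn1 and ugt1a1 were not analysed here.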

Additional observations from a re-analysis of the deposited data

Results flagged for a closer look

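In 4 of 18 groups of 4 or 5 libraries, 1 library of a member stood far from the others of its group by Dixon's test, where chance gives about 1 in 20 groups, or 5%. For cyp1a, low dose replicate 1 was at 24.5 CPM, above 9.26 to 11.03 CPM in the rest of its group. For tiparp, low dose replicate 4 was at 35.0 CPM, and the others lay between 13.4 and 15.2 CPM. For cyp1d1, the same library was at 7.86 CPM, below 12.3 to 12.5 CPM in the others. For ahrrb, control replicate 2 was at 0.995 CPM (14 counts), above 0 to 0.260 CPM in the other controls. These were 3 of 9 low-dose and 1 of 9 control groups. Over 18786 genes the same gap stood out for 6.57% of genes at the low dose and 6.10% in controls. Low dose replicate 4 was the library standing out for 3.84% of genes and control replicate 2 for 1.88%, against 0.809% for low dose replicate 1. Whether the flags are particular to these genes was not tested, and the groups are too few to decide it.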

How the results depend on the processing

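No setting gave a member past the threshold in any comparison. The smallest adjusted p of a member was 0.739 at the low dose (cyp1a, without low dose replicate 2), 0.855 at the high dose (ahr1b, gut covariate) and 0.751 between the doses (ahrra). Member directions held in 149 of 159 values at the low dose, 143 of 151 at the high dose and 155 of 175 between the doses. The causes of the shifts below were not tested.

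Counts over all genes were 1 at the low dose with DESeq2 (0 in the main test). At the high dose they were 4 with DESeq2, 2 with limma's array quality weights, 1 with the gut covariate and 1 without the libraries that stand apart (low dose replicate 4, control replicates 2 and 3). Without those libraries the count between the doses was 3.

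With limma, low-dose values turned to 0.027 (cyp1c2), -0.15 (tiparp), 0.10 (kmo) and -0.38 (arnt), and high against low to -0.10 (cyp1d1) and 0.15 (ahr1b). Without the libraries that stand apart, low-dose values were 0.37 (cyp1c2), -0.31 (tiparp), 0.0055 (sox9b), -0.032 (porb) and -0.87 (arnt), and high against low -0.094 (cyp1d1) and 0.20 (ahr1b). High against low, tiparp was -0.0045 with DESeq2 size factors, -0.0037 with DESeq2 and -0.038 with the gut covariate.

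Same-numbered libraries did not deviate together throughout (correlations from -0.26 to 0.26). The correlations were above 0 for replicates 1 and 3 and below 0 for replicates 2 and 4. They do not decide whether the numbers pair the samples, and the labels do not say, so the main fits used no pairing. With the replicate block, counts of calls were 0 in each comparison, tiparp was -0.13 at the low dose, cyp1c2 -0.093, ahr2 0.16, tiparp -0.10 and kmo -0.11 at the high dose, and ahr1b 0.087 high against low.

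Leaving out 1 library at a time, low-dose values ran from -0.022 to 0.60 (cyp1c1), -0.88 to 0.088 (cyp1c2), -0.36 to 0.23 (tiparp), -0.36 to 0.053 (kmo), -0.085 to 0.63 (haao), -0.0020 to 0.28 (nfe2l2a) and -0.62 to 1.24 (arnt). High-dose values ran from -0.14 to 0.79 (cyp1a), -0.23 to 0.085 (ahr2), -8.7e-05 to 0.28 (tiparp) and -0.046 to 0.81 (arnt). High against low they ran from -0.90 to 0.027 (cyp1a), -0.39 to 0.23 (cyp1c1), -0.11 to 0.17 (cyp1d1), -0.37 to 0.20 (ahr1b) and -0.12 to 0.46 (tiparp). Pairs that varied together numbered 0 to 1. Depth left ahrrb, with 0 to 18 counts per library, untested.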
